A study of Mus musculus with 48 samples.

Results

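The interval described here runs from 20835000 to 21015000 on mouse chromosome 10 (mm9), from 46 kb beyond the Myb start on the gene side to within 1 kb of Hbs1l. Myb lies on the minus strand with its start near 20881000, and Hbs1l begins near 21016000, so that the stretch upstream of Myb runs toward Hbs1l. All ATAC-seq peaks of 48 deposited lists that overlap this interval were taken and merged where they shared at least 1 bp. The 652 peaks formed 73 regions, of 258607 regions that the 48 lists form over the genome. Of these 73 regions, 27 lie on the gene side of the Myb start and 46 lie upstream. Regions are named below by the distance of their centre from the Myb start, and "the start region" is the one at 20880495 to 20880963.

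ATAC-seq uses a transposase that cuts and tags open DNA, and each list gives the places where such cuts pile up in 1 library. The cells were mouse bone marrow ER-Hoxb8 lines, myeloid progenitors that keep dividing without maturing as long as a Hoxb8 protein, fused to the hormone-binding part of the oestrogen receptor, is switched on. The series holds 24 clones, numbered 1 to 13 and 15 to 25, each with 1 progenitor library (source named as GMP cells, granulocyte-monocyte progenitors) and 1 library of its monocytic offspring, and the series design states that the stages are clonally paired. Both stages carry the ER-Hoxb8 transgene, and the medium named for the cells holds serum, antibiotics and stem cell factor (SCF). The titles call progenitors "Plus" and monocytes "Minus", and the labels do not say of what; strain, age and the day of harvest are not stated in them. Each clone was measured 1 time per stage, so that the spread between clones below includes the spread between libraries.

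Myb encodes the transcription factor c-Myb, which keeps blood progenitors dividing and immature and falls as myeloid cells mature. The stretch between Myb and Hbs1l (a translation factor of the ribosome rescue pathway) is known in human and mouse erythroid cells for distal enhancers that contact the Myb promoter. Part of the control of Myb is also known to lie inside the gene, where transcription can stall in its first intron. In RefSeq's GRCm38 annotation 4 long noncoding RNA genes (Gm40608, Gm33619, Gm33671 and Gm33728) and 1 pseudogene (Gm2467) lie between Myb and Hbs1l, and Ahi1 is the neighbour on the other side of Myb. That annotation is of another build than the peak lists, so exons, introns and these genes were not placed on the regions.

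The region found in all 24 progenitor lists lies beside the Myb start, on the gene side. The Myb promoter is shown because of this, though overlap of the printed bases with that region was not checked. Its 250 bases before the start, from RefSeq, are at chr10:21160985-21161234 on the minus strand of GRCm38.p6 and are printed 5′ to 3′, with the motif matches found in it in capitals.
Myb promoter: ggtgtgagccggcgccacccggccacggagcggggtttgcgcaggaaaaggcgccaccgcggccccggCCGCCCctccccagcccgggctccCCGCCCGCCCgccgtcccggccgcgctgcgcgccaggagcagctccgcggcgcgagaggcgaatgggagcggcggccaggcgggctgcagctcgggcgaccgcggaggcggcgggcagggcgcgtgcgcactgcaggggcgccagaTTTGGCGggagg
G and C make up 81.2% of it, against a median of 52.4% over 32851 mouse promoter windows of the same length, and 0.861% of windows are at least as rich. It holds 40 CpG pairs, where the median window holds 6 and 1.31% hold as many. The GC box (GGGCGG, the letters bound by Sp1-type factors) matches 3 times on the reverse strand, starting 182, 158 and 154 bases before the start, with the last 2 matches overlapping; 32.7% of windows hold a match and 8.47% hold 3 or more. The E2F-type motif TTTGGCG matches 1 time, 12 bases before the start, as it does at least 1 time in 1.26% of windows. No match was found on either strand for AACNG (a Myb-type core, in 74.2% of windows), CGGAAG (ETS-type, 13.6%), CCAAT (33.9%) or TATAAA (12.4%). The motifs were chosen after the sequence was seen, and a match is only a run of letters.

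Open regions were dense in the interval. The genome was laid out in 13433 windows of 180 kb that hold a peak region, and the median window held 13 regions, against 73 here; 70 windows (0.521%) held at least as many. Counting only regions found in at least 5 lists, the interval held 36, the median window 5, and 1.06% of windows as many. Counting regions found in at least 12 of 24 progenitor lists, it held 21, the median window 3, and 4.05% of windows as many. The interval thus stands high in all of these counts, and least so for the regions shared by most progenitor libraries.

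**Figure D1:**
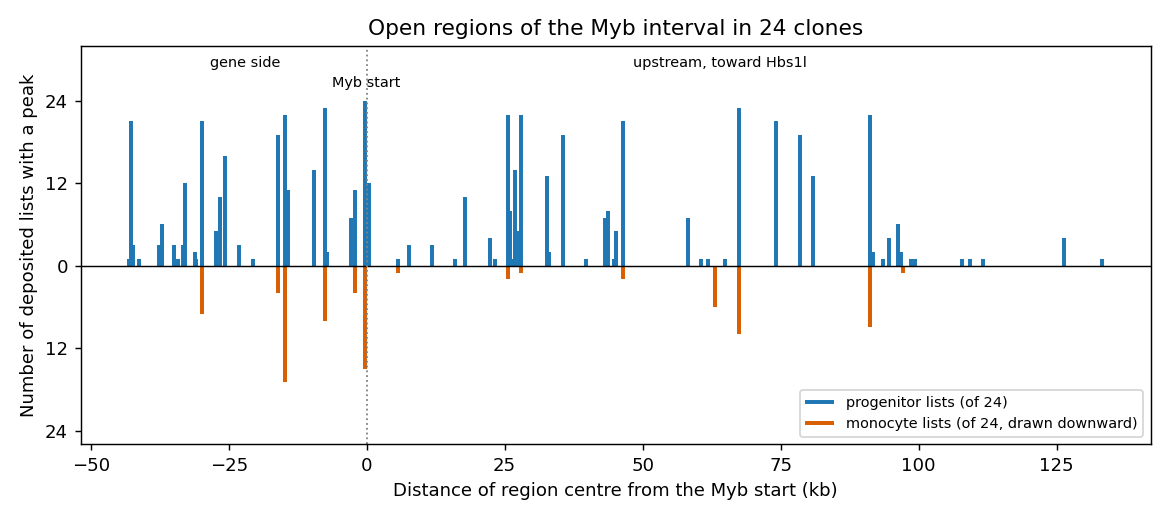
Number of progenitor lists (bars up) and monocyte lists (bars down), of 24 each, with a peak in each of the 73 regions, by distance of the region's centre from the Myb start in kb (upstream is positive). The start region reaches 24 progenitor and 15 monocyte lists, the region 14.7 kb inside the gene side reaches 17 monocyte lists, and most other regions have bars on the progenitor side alone.

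Most regions of the interval were listed in progenitors alone. Of the 73 regions, 59 (80.8%) were in no monocyte list, against 61.8% of all regions of the genome, and 2 (2.74%) were in no progenitor list, against 17.4%. In both stages were 12 (16.4%, genome 20.8%). The start region was the 1 region in all 24 progenitor lists, and no region was in all 48. On the gene side 21 of 27 regions had no monocyte peak, and upstream 38 of 46. Shorter and shallower monocyte lists stand beside these shares, as follows. In bulk libraries, fewer cells with an open region and less opening per cell cannot be told apart.

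The lists differ in length. Progenitor lists held 11114 to 136322 peaks and monocyte lists 231 to 38786, and relative depth, read from the spacing of the scores, averaged 2.22 ± 1.01 (SD, n = 24) for progenitors against 0.766 ± 0.223 for monocytes (SD, n = 24). Monocyte libraries of clones 15 to 25 stand apart from those of clones 1 to 13. No list shared more than 0.0283% of its rows with another. Presence is therefore also given in lists cut to one length, and clones 1 to 13 are given alone. The part of list length and depth in the difference between the stages was not tested.

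Progenitor lists held 23.5 ± 10.1 peaks of the interval (SD, n = 24; lowest 1, median 23.5, highest 46) and monocyte lists 3.62 ± 3.10 (SD, n = 24; lowest 0, median 3, highest 9). The monocyte lists with 0 peaks were those of clones 16, 21, 22 and 23. In clones 1 to 13 monocytes held 5.92 ± 2.33 (SD, n = 13; 3 to 9), and in clones 15 to 25 they held 0.909 ± 0.831 (SD, n = 11; 0 to 2). Within a clone, progenitors had more regions in 23 of 24 clones, and clone 11, whose progenitor list has 11114 peaks, had 1 region in progenitors and 3 in monocytes. Per 10000 peaks of the list, progenitors held 2.85 ± 0.567 and monocytes 1.76 ± 1.16 (SD, n = 24 each), and progenitors were higher in 18 of 24 clones. In clones 1 to 13 alone the same values were 2.84 ± 0.728 and 2.30 ± 0.682 (SD, n = 13 each), with progenitors higher in 8 of 13 clones. Set against list length, the gap between stages was thus far smaller than in the raw counts. Regions that a clone's monocytes had and its progenitors lacked numbered at most 2 per clone and 0 in 15 of 24 clones.

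**Figure D2:**
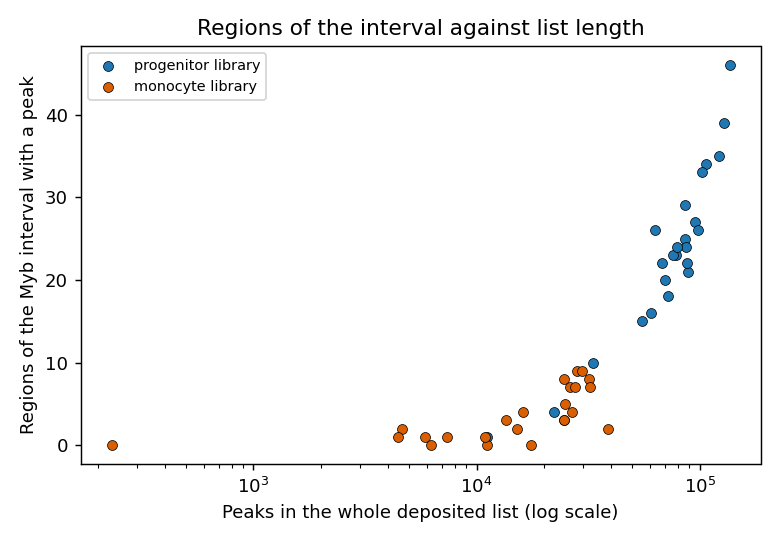
Regions of the interval with a peak (vertical axis, number) against the number of peaks in the whole list (horizontal axis, log scale), 1 point per library. Progenitor lists reach 46 regions at the longest lists and monocyte lists at most 9, and the longest monocyte list, with 38786 peaks, holds 2.

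Among the 10000 highest peaks of a list, the stages held like numbers of peaks of the interval. The count was 1.29 ± 0.550 in progenitors (SD, n = 24) and 1.17 ± 0.786 in the 18 monocyte libraries with at least 10000 peaks (SD), a difference of -0.125 (two-sided permutation test, p = 0.640). In clones 1 to 13 the difference was 0.231 (permutation p = 0.496), with monocytes on the higher side. Ranked by the second deposited score it was -0.764 (permutation p = 0.0201). Among the 5000 highest peaks by the first score it was 0.310, higher in monocytes (permutation p = 0.0505), and among 20000 it was 0.0399 (permutation p = 1.0). The sign of the difference thus changed with the score and with the length of the lists.

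The start region was a strong peak in both stages of clones 1 to 13. It was present in 24 of 24 progenitor and 15 of 24 monocyte lists, 39 in all, as many as the region 14.7 kb on the gene side. It held 8 to 1205 tags in progenitors (median 330) and 12 to 243 in monocytes (median 108), a tag being 1 step of the score ladder. Its rank from the top of its list, in percent of the list, was 5.02 to 68.3 in progenitors (median 8.83) and 12.6 to 81.2 in monocytes (median 21.8). These ranks come from lists of unequal length and show no change by themselves. All 13 monocyte lists of clones 1 to 13 held the region, and in clones 15 to 25 those of clones 17 (12 tags) and 20 (13 tags) did.

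In lists cut to 10000 peaks, the start region was present in 20 of 24 progenitor and 13 of 18 monocyte libraries, a difference of -11.1 percentage points (Fisher's exact test with Benjamini-Hochberg adjustment over 13586 regions, adjusted p = 0.680). All of those 13 monocyte libraries were clones 1 to 13, and none of the 5 cut monocyte lists of clones 15 to 25 held it. In clones 1 to 13 the counts were 12 of 13 and 13 of 13 (exact test, adjusted p = 1.0). In lists of 20000 peaks it was present in all 23 progenitor and all 12 monocyte libraries.

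A finer measure was the position of a region, the percent of reference regions that scored lower in the same library. The reference was the 8188 regions with a peak in both libraries of all clones 1 to 13. The start region stood at 15.8 to 86.4 in progenitors (median 37.0) and at 14.5 to 76.1 in monocytes (median 44.2), so that the stages overlapped. Its mean position was 38.4 ± 18.2 for progenitors (SD, n = 13) against 41.3 ± 17.2 for monocytes (SD, n = 13), a difference of 2.83 ± 6.80 (SE), with monocytes higher in 10 of 13 clones (exact sign-flip test over clones, adjusted p = 0.771). With the second score the difference was -2.58 (exact adjusted p = 0.835), and leaving out 1 clone at a time moved it between 0.378 and 7.60. With this spread the stages are not shown to be alike at the start. The SD between clones was 18.2 in progenitors and 17.2 in monocytes, against medians of 10.1 and 7.56 over reference regions at any position. Whether it is wide for regions at a like position was not tested. Without clones 3, 10 and 11 the SD was 9.60 in progenitors and 10.2 in monocytes, on another reference. The library farthest out was that of the progenitors of clone 11, at 86.4, the shortest list of clones 1 to 13. Among monocytes those of clone 10 stood at 76.1 and those of clone 3 at 65, both with short lists, and those of clone 1 at 14.5.

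The 3 clones with the shortest lists, 3, 10 and 11, limit the reference, since a region counts only where all 26 lists have it. Without them the reference grew from 8188 to 14873 regions and weaker peaks were spread over a wider scale, an alternative chosen after seeing the data. Leaving out clone 11 alone did part of this, with a reference of 10817 regions and differences of -4.42, -19.5 and -8.77 for the regions at 7.5 kb on the gene side and 67.5 and 91.2 kb upstream (exact sign-flip test, adjusted p 0.00236, 0.00943 and 0.0104). The start region then stood at 58.1 ± 9.60 for progenitors (SD, n = 10) against 62.1 ± 10.2 for monocytes (SD, n = 10), higher in monocytes in 8 of 10 clones (difference 3.95 ± 4.38, SE; exact sign-flip test, adjusted p = 0.463). Monocytes of clone 1 were low, at 41.3 against 69.5 in its progenitors. For the regions below, the values on both scales are given, because they differ by more than 1.5 times.

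Across the interval, 10 of 73 regions were present in at least 13 of the 26 libraries of clones 1 to 13 and could be tested for position. Of these, 1 was higher in monocytes, where 14.2% of all 34316 regions tested were, and 6 were higher in progenitors, where 36.8% were (adjusted p below 0.05). A missing peak was placed at position 0, so a region with no monocyte peak can only fall. Of the 6 regions higher in progenitors, 3 (25.7, 28.0 and 46.4 kb upstream) reached the test with 12 progenitor and only 1 or 2 monocyte lists. Their calls restate that absence and are given no weight below. With the 10 clones that have longer lists, 7 regions were tested, 1 higher in monocytes (19.0% of 28338 regions) and 3 higher in progenitors (39.9%). Leaving out clone 7 alone left 6 regions tested and 3 called higher in progenitors. The 4 called with the 10 clones had a p of 0.00195, the smallest that 10 clones can give, because all 10 clones moved the same way.

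**Figure D3:**
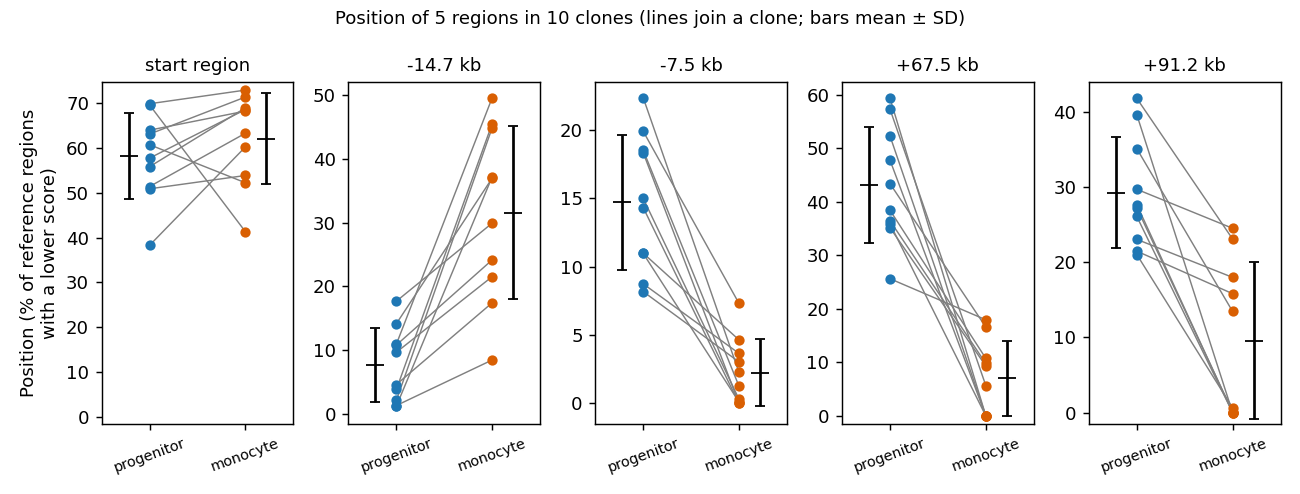
Position of 5 regions (percent of 14873 reference regions with a lower score) in progenitors and monocytes of the 10 clones left without clones 3, 10 and 11; points are libraries, lines join a clone, and bars are mean ± SD. Each panel has its own scale. The region 14.7 kb on the gene side rises in 10 of 10 clones, those 7.5 kb on the gene side and 67.5 and 91.2 kb upstream fall in 10 of 10, and the start region goes either way.

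The region that rose in monocytes lies 14.7 kb from the start on the gene side, at 20866086 to 20866426. It was listed in 22 of 24 progenitor and 17 of 24 monocyte lists, more monocyte lists than the start region. It held 5 to 151 tags in progenitors (median 61) and 6 to 107 in monocytes (median 26). Its median rank was 33.5% of the list in progenitors and 50.8% in monocytes, in lists of unequal length. The rise of this region is thus one of position among reference regions and of presence in cut lists, not of tags. Its position on the 13-clone scale was 0 to 8.35 in progenitors (median 0.202) and 0 to 18.6 in monocytes (median 4.84). Monocytes were higher in 11 of 13 clones, with a mean difference of 5.74 ± 1.98 (SE, n = 13; exact sign-flip test, adjusted p = 0.0309). This call was lost when any 1 of clones 2, 6, 7, 12 or 13 was left out (exact sign-flip test, adjusted p 0.0588 to 0.0624) and with the second score (0.0737). It was also lost with 18 clones (sign-flip test with random draws, adjusted p = 0.0723). Leaving out clone 11, whose progenitor list is the shortest of clones 1 to 13, raised the mean difference to 11.7 (exact sign-flip test, adjusted p = 0.0264).

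On the 10-clone scale the same region stood at 1.28 to 17.7 in progenitors (median 7.18) and 8.50 to 49.5 in monocytes (median 33.4). It was higher in monocytes in 10 of 10 clones, by 23.9 ± 4.50 (SE; exact sign-flip test, adjusted p = 0.00603), although the stages overlap. Clone 6 went from 1.28 to 37.2 and clone 13 from 2.18 to 44.8, while clone 5 went from 1.37 to 8.50. As a percent of the start region's score in the same library, it was 14.5% in progenitors and 31.5% in monocytes at the median of the 11 clones of 1 to 13 with all peaks, and monocytes were higher in 8 of 11. The gain against the start region was thus less uniform than the gain in position.

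Presence in cut lists gave the same direction for this region. Of the 3 regions of the interval in that test, it was the 1 called higher in monocytes, where 11.5% of the 13586 regions were, and none was called higher in progenitors, where 12.3% were. Among the 10000 highest peaks it was found in 0 of 24 progenitor and 5 of 18 monocyte libraries, those of clones 2, 7, 13, 18 and 25 (difference 27.8 percentage points, Fisher's exact test, adjusted p = 0.0437). Blocked by clone the adjusted p was 0.221 over 18 clones (exact sign test, unadjusted p = 0.0625). That is the smallest p that 5 clones can give, so the blocked fit could not have called this region. In clones 1 to 13 alone too few lists held it to be tested. In lists of 20000 peaks it was found in 4 of 23 progenitor and 11 of 12 monocyte libraries (difference 74.3 points, exact adjusted p = 0.000415), and in clones 1 to 13 in 2 of 12 and 11 of 11 (difference 83.3 points, exact adjusted p = 0.000948). Lists of one length are not cut at one number of tags. The peak at rank 10000 held a median of 238.5 tags in progenitors and 42.5 in monocytes. In lists of 20000 this region counted as present in monocytes of clone 5, with 15 tags, and as absent in progenitors of clone 4, with 57. In monocytes of clones 15, 18 and 24 it was the only region of the interval listed, with 18, 26 and 14 tags. In those of clone 25 it was the better ranked of 2 regions, with 21 tags. None of these 4 lists held the start region.

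On the position scale no other region on the gene side was called higher in monocytes. The region 7.5 kb from the start (20873427 to 20873643) was listed in 23 of 24 progenitor and 8 of 24 monocyte lists, with 7 to 247 tags in progenitors (median 81) and 7 to 21 in monocytes (median 13). Its mean position fell from 1.94 to 0.0841 (lower in monocytes in 12 of 13 clones, exact sign-flip test, adjusted p = 0.00316). On the 10-clone scale it stood at 8.17 to 22.3 in progenitors and 0 to 7.31 in monocytes, with no overlap, and the difference was -12.5 ± 1.74 (SE, n = 10; exact sign-flip test, adjusted p = 0.00603). Relative to the start region it went from 21.9% to 8.00% at the median of the 8 clones of 1 to 13 with all peaks, lower in monocytes in 8 of 8. These 2 regions, 7.3 kb apart on the same side of the start, thus moved in opposite directions in the same libraries.

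Farther into the gene side, the tested regions were called in neither direction on the position scale. The region 16.1 kb from the start (20864792 to 20864974), next to the one that rose, was listed in 19 progenitor and 4 monocyte lists and had mean positions of 0.0427 and 0.0225 (exact sign-flip test, adjusted p = 0.495). The region 29.9 kb from the start (20850982 to 20851175) was in 21 progenitor and 7 monocyte lists, with mean positions of 0.505 and 0.472 (exact sign-flip test, adjusted p = 0.942). Against the start region it was 18.4% in progenitors and 12.4% in monocytes, lower in monocytes in 6 of 7 clones with all peaks. In lists of 20000 peaks it was more often present in monocytes, in 6 of 12 against 2 of 23 progenitor libraries (exact test, adjusted p = 0.0414), and in clones 1 to 13 alone the adjusted p was 0.253. The limit given above for lists of one length holds here too. A region 2.1 kb from the start (20878833 to 20879039) was in 11 progenitor and 4 monocyte lists and too few of them for the position test.

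Upstream of Myb, the strongest region lay 67.5 kb from the start, at 20948395 to 20948668. It was listed in 23 of 24 progenitor lists with 12 to 651 tags (median 227) and in 10 of 24 monocyte lists with 7 to 36 tags (median 16). Its rank was 5.31% to 45.9% of the list in progenitors (median 13.8), and it outranked the start region in progenitors of clones 12, 15, 16, 19, 21 and 25. Those of clones 21 and 25 are shallow, with relative depths of 0.132 and 0.0916. They held 11 and 8 tags at the start region against 26 and 12 at the 67.5-kb region. Progenitors of clone 11 had no peak there. In many progenitor libraries this distal region was thus close to the start region in score, at a median of 66.9% of it over 23 libraries (24.9% to 236%). The highest value is that of the shallow library of clone 21.

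In monocytes the 67.5-kb region was low. Its position on the 13-clone scale was 0 to 36.7 in progenitors (median 8.79) and 0 to 12.5 in monocytes (median 0.660), a mean difference of -11.5 ± 3.40 (SE, n = 13; exact sign-flip test, adjusted p = 0.00890), lower in monocytes in 10 of 13 clones. The 2 clones with the higher monocyte value were 3 and 10, whose monocyte lists are the shortest of clones 1 to 13. Without clones 3, 10 and 11 it stood at 25.6 to 59.4 in progenitors (median 40.9) and 0 to 18.0 in monocytes (median 7.50), with no overlap and a difference of -36.2 ± 5.10 (SE, n = 10; exact sign-flip test, adjusted p = 0.00603). Relative to the start region it fell from a median of 58.5% to 14% in the 9 clones with all peaks, lower in 9 of 9, and clones 3 and 10 are among them.

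Presence in the highest 10000 peaks did not pass for this region, at 11 of 24 progenitor and 2 of 18 monocyte libraries (difference -34.7 percentage points, Fisher's exact test, adjusted p = 0.0792). Within clones 1 to 13 the counts were 4 of 13 and 2 of 13 (exact adjusted p = 1.0), the 2 monocyte lists being those of clones 3 and 10. It passed in lists of 20000 peaks, with 23 of 23 against 6 of 12 libraries (exact adjusted p = 0.00392), and by the second score (difference -44.4 points, exact adjusted p = 0.0137). In clones 1 to 13 and lists of 20000 the counts were 12 of 12 and 6 of 11 (exact adjusted p = 0.0492). The call thus depended on the length of the lists and the score compared.

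The region 91.2 kb upstream (20972031 to 20972295) went the same way. It was in 22 of 24 progenitor lists with 10 to 561 tags (median 143) and in 9 of 24 monocyte lists with 8 to 40 tags (median 18). Its position was 0 to 12.6 in progenitors (median 4.74) and 0 to 8.65 in monocytes (median 1.01), and its mean fell by 4.22 ± 1.17 (SE, n = 13; lower in monocytes in 11 of 13 clones, exact sign-flip test, adjusted p = 0.0101). With the second score the adjusted p was 0.160 (exact sign-flip test). On the 10-clone scale the stages were 21 to 41.8 and 0 to 24.5, overlapping, with a difference of -19.7 ± 3.62 (SE, n = 10; exact sign-flip test, adjusted p = 0.00603). Relative to the start region it went from 41.2% to 17.8% at the median, lower in monocytes in 9 of 9 clones with all peaks. All 9 monocyte lists were among clones 1 to 13.

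Nearer upstream, 3 regions were listed in at most 2 monocyte lists each. The region 25.7 kb from the start (20906611 to 20906791) was in 22 progenitor and 2 monocyte lists, with 15 to 189 tags in progenitors (median 90) and at most 11 in monocytes, and at most 5.34% of the start region's score there. Those 28.0 kb (20908890 to 20909040) and 46.4 kb (20927312 to 20927481) from the start were in 22 and 21 progenitor and in 1 and 2 monocyte lists. In clones with a peak in both stages, monocytes were lower in 2 of 2 clones at 25.7 kb and 2 of 2 at 46.4 kb. In the 1 such clone at 28.0 kb they were higher, at 4.53% of the start region against 4.2%. Without clones 3, 10 and 11 these 3 regions were in too few lists to be tested, and the first stood at 5.91 to 25.8 in progenitors and 0 to 0.787 in monocytes, of which 2 lists had a peak.

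**Figure D4:**
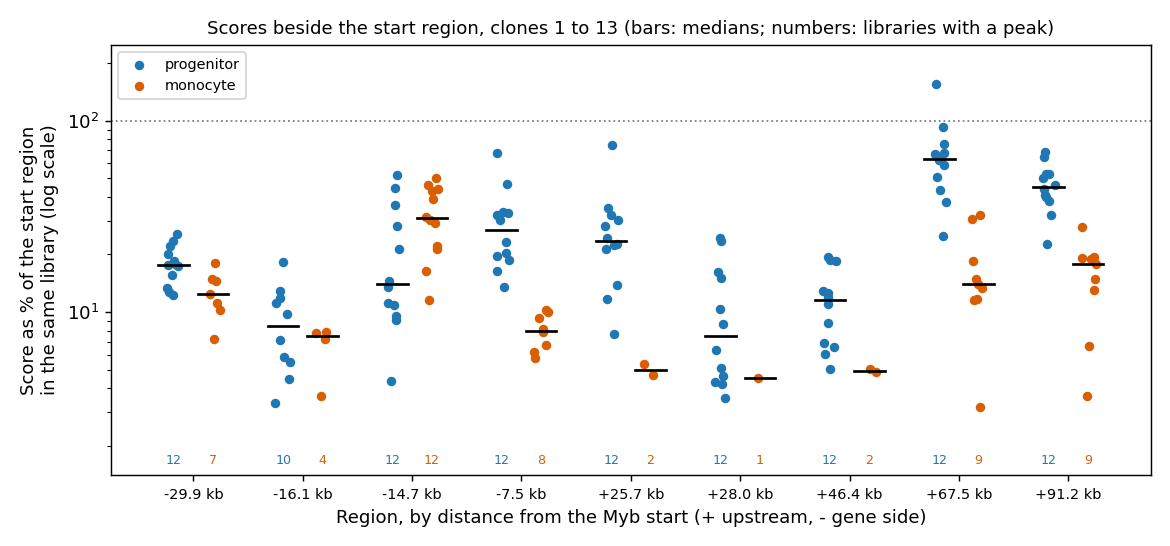
Score of 9 regions as a percent of the start region's score in the same library (log scale), for libraries of clones 1 to 13 with a peak; points are libraries, bars medians, and the numbers at the foot count the libraries. Monocyte medians lie above those of progenitors at -14.7 kb and below them at every other region shown. Those at +25.7, +28.0 and +46.4 kb rest on 1 or 2 monocyte libraries.

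The counts called in the other settings stand beside their own backgrounds. In lists of 20000 peaks, 2 regions of the interval were higher in monocytes (14.4% of 27315 regions tested were) and 1 in progenitors (12.9%). In clones 1 to 13 with those lists, 1 was higher in monocytes (15.9% of 25207) and 2 in progenitors (12.0%). With the second score 0 and 1 were called (14.9% and 15.5% of 18104). In lists of 5000 peaks 0 were called in either direction (12.3% and 14.2% of 7383), as in clones 1 to 13 alone (7.86% and 5.07% of 12241), with the replicate block (5.06% and 6.05% of 13347) and in the commonest naming code (9.64% and 7.45% of 12618). For position, 0 and 4 were called with the second score (6.61% and 23.9% of 34316), and 0 and 4 with all 18 clones that have lists of at least 10000 peaks (6.12% and 31.6% of 30182). Leaving out missing peaks called 1 and 0 of 2 regions tested (23.4% and 23.6% of 16385), and without the replicate block 1 and 6 were called (15.2% and 36.5% of 34316). In most settings the share of the interval's tested regions is near the background or rests on 1 to 8 regions. The position fits on 10 regions differ, with 6 called higher in progenitors in the main fit, where 36.8% of all regions tested were. Of these, the regions 25.7, 28.0 and 46.4 kb upstream had only 1 or 2 monocyte lists. The calls describe single regions rather than the interval.

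Regions with no monocyte peak at all were mostly weak. Of 21 regions in at least 12 progenitor lists, 11 (52.4%) were in no monocyte list, against 31512 of 72898 such regions of the genome (43.2%). They lay at 42.6, 32.9, 25.7 and 9.6 kb on the gene side and 0.5, 26.8, 32.7, 35.6, 74.2, 78.5 and 80.8 kb upstream. Those at 42.6 kb on the gene side and 74.2 kb upstream were each in 21 progenitor lists, with a median of 27 and 23 tags. In progenitors these 11 regions held a median of 3.42% to 26.2% of the start region's score, 6.25% at the middle one, and the highest is the region 0.5 kb upstream of the start. The lowest peak listed in monocytes of clones 1 to 13 was 2.27% to 12.5% of their start region (median 4.42%). The middle of the 11 medians, 6.25%, lies above the median limit and below the highest one. A peak that kept its progenitor share would thus have passed the limit in some monocyte lists and not in others. The lists cannot tell a full loss in monocytes from a peak that fell under the limit, and this was not tested.

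The opposite pattern was rare. A region 63.2 kb upstream (20944141 to 20944339), 4.3 kb from the region that fell most, was in 0 of 24 progenitor and 6 of 24 monocyte lists, those of clones 2, 4, 6, 8, 12 and 25. It held 9, 10, 12, 17, 17 and 26 tags there. It was singled out after its values were seen, and no test was made. Over the genome 83 of 258607 regions (0.0321%) were in no progenitor and at least 6 monocyte lists. Progenitor lists, deeper and longer on average, thus held no peak at this place, while these few monocyte libraries held a weak one. In clone 25 the order of depth was reversed, with a relative depth of 0.0916 in progenitors and 1.46 in monocytes. The other region absent from progenitors, 97.1 kb upstream, was in 1 monocyte list.

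Whether a clone's monocytes keep the standing of its progenitors was asked of the start region in clones 1 to 13. Its positions in the stages correlated over 13 clones with r = 0.0381 (permutation p = 0.90, or 0.987 adjusted over 8188 reference regions). Spearman's rho was 0.275 (permutation p = 0.363, or 0.894 adjusted). Without clones 11 and 12, the farthest on the progenitor axis, r was 0.391. Of the 8188 regions, 0 (0.0%) passed after adjustment by r or by rho, and without adjustment the permutation p was below 0.05 for 557 regions by r and 609 by rho. No relation between the stages was detectable for the Myb start with this number of clones.

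The regions most like the start region, by r of stage-centred position over the 26 libraries against 8187 others, were at 66617957 to 66618312 on chromosome 18 (r = 0.881), 30062153 to 30062693 on chromosome 5 (r = 0.874) and 52765589 to 52766013 on chromosome 7 (r = 0.870). The median region had r = 0.0105. These values share libraries, depth and list length.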

How the data were processed

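Each of the 48 libraries has 1 peak list in mm9 coordinates. The submitters' processing notes name BWA and mm9. The BWA version, peak caller, read filters and transposase shift were not stated there, and no other source was used. Beside each peak the authors deposited a first and a second score, in columns without header, whose scaling and meaning no label states. The first score lies on an evenly spaced ladder (in each library 89.8% to 100% of low scores were within 0.1 step of a whole multiple). A step was therefore taken as 1 tag, which gives relative depth only. Read totals are unknown.

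Groups came from the labels' source names. The clone number pairs the stages, since the series design describes clonal pairs. Peaks were merged across lists on 1 bp of overlap, and a region's score is its highest peak. Presence was tested in lists cut to their 10000 highest peaks (24 progenitor and 18 monocyte libraries; regions in at least 5 lists; two-sided Fisher's exact test). Position was tested in clones 1 to 13 (regions in at least 13 of 26 libraries; two-sided exact sign-flip test over clones, 8192 sign patterns). P-values were adjusted over all regions tested (Benjamini-Hochberg, threshold 0.05). Permutation tests drew 100000 resamples. The 10 regions with a position test are named, with others in a count. Members, lists and tests were chosen with earlier results of these data known. Alternatives were other list lengths, the second score, clone subsets, naming code, merging across 500 bp, missing peaks left out, fits with and without the replicate block and each clone left out. The subset without 6 thin or deviating libraries, that without clones 3, 10 and 11, cut lists merged alone, clones 1 to 13 with lists of 20000, the percentages of the start region and leaving out clones were added after seeing the data. Scripts were tested on simulated data. Markers of the cell type were not checked, since no mm9 annotation was used here. Python 3.11.15, NumPy 2.4.6, SciPy 1.17.1, pandas 2.3.3 and matplotlib 3.10.9 were used.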

Additional observations from a re-analysis of the deposited data

How the results depend on the processing

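In cut lists, 1 region of the interval was higher in monocytes and 0 in progenitors. The first count became 0 in lists of 5000, with the second score, in clones 1 to 13, in the commonest naming code (18 progenitor and 14 monocyte libraries) and in the fit with the replicate block, and 2 in lists of 20000. The second became 1 in lists of 20000 and with the second score, and 2 in clones 1 to 13 with lists of 20000. For position, 1 region was higher in monocytes and 6 in progenitors, 3 of them with 1 or 2 monocyte peaks. With the second score and with 18 clones the first count was 0. With missing peaks left out the second was 0 of 2 regions tested, and without clones 3, 10 and 11 it was 3 of 7. Leaving out 1 clone at a time gave 0 to 1 and 3 to 6. Without the replicate block the counts were 1 and 6. In the presence test the fit with the block also used a sign test and 18 progenitor libraries instead of 24. The loss of its call there is thus not a measure of the pairing alone. The number of peaks of the interval among the highest 10000 differed by -0.764 with the second score (permutation p = 0.0201), and by -0.0556 with the replicate block (sign-flip test with random draws, p = 1.0). No value called in the main fits changed sign under the alternatives run. Uncalled values did, namely the positions of the start region and of those 16.1 and 29.9 kb on the gene side, and the number of interval peaks. Apart from the fewer regions or clones tested in the subsets, the cause of these changes was not tested.

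Depth is known only relative to other libraries, and a missing peak has no score. A low position in monocytes can be a peak under the listing limit, which was 2.27% to 12.5% of the start region in clones 1 to 13. Monocyte lists of clones 15 to 25 held at most 2 regions of the interval each, so most regions cannot be placed in them. Many of these lists are short, but that of clone 20 has 38786 peaks and 2 regions, and that of clone 21 has 17591 peaks and 0. Why they hold so few was not tested.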
